A study of Mus musculus with 6 samples.

Results

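Neurotrophic factors are secreted proteins that keep neurons alive and shape their connections. The neurotrophins are made as precursors, cleaved, and bind Trk receptor tyrosine kinases, while the p75 receptor binds all of them and also their uncleaved forms. Factors of the glial cell line-derived family bind GFRα co-receptors that engage the kinase RET, and the ciliary neurotrophic factor acts through a complex that contains the signal transducer gp130. Motor neurons respond to members of all 3 groups in culture. The genes described here are 8 by name: the ligand genes Bdnf, Ntf3, Gdnf and Cntf and the receptor genes Ntrk2, Ntrk3, Ngfr and Gfra1. The rule picks them by symbol and uses no measured difference between the groups, though the list was drawn up with earlier results of these data known. For each, the probeset with exactly 1 gene symbol and the highest mean log2(intensity + 1) was used, which gave values for 6 of the 8 genes, among 22180 genes with such a probeset. Ntf3 was not named by any listed probeset, and the 1 probeset that names Cntf also names Zfp91 and Gm44505, so Ntf3 and Cntf were not analysed here. Bdnf, Ntrk2, Ntrk3, Ngfr and Gfra1 passed a limit on brightness that kept 16635 genes, and Gdnf did not.

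Total brain RNA was hybridised to 1 Affymetrix Mouse Gene 2.0 ST array for each of 6 samples. The 3 KO samples came from Thy1Cre-ERT2-EYFPHuRf/f mice, which carry both copies of the gene for the RNA-binding protein HuR (Elavl1) flanked by loxP sites. The 3 WT samples came from Thy1Cre-ERT2-EYFPHuRf/+ mice, in which 1 copy is floxed, so they are heterozygous controls and not free of Cre. Both groups carry the same tamoxifen-inducible Cre with a yellow fluorescent reporter, driven by the Thy1 promoter, which is active in neurons. All mice, of either sex, received tamoxifen at 10 and 11 weeks, and brains were taken at 91 days. HuR binds AU-rich stretches of messenger RNA, and cells other than neurons keep the gene. The labels name no animals and no batches, so p values measure only the spread between these samples.

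Some facts of the whole series bear on every value below. Array medians ran from 13.4 to 14.7 intensity units, and values are given as quantile-normalised log2(intensity + 1), called log2 level, in which a difference of 1 is a doubling only for probesets well above the pseudocount. Elavl1 itself had log2 levels of 8.22, 8.17 and 8.27 in KO brain, against 8.27, 8.01 and 8.53 in WT brain, which is -0.05 ± 0.15 (SE) as a log2 fold change (limma, adjusted p = 1; two-sided exact permutation p = 0.7). Its value turned to 0.08 without WT 3. Array 3 of each group stood apart from the rest: Xist, transcribed from the silenced X chromosome of females, had a log2 level of 7.68 in KO 3 and 7.69 in WT 3, and between 2.52 and 2.79 on the other 4. The neuronal marker Rbfox3 was well above the brightness limit of 3.28 on all arrays, at 8.35 to 8.76 in KO and 8.23 to 8.86 in WT brain.

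In KO brain 0 of the 5 members above the brightness limit differed from WT at an adjusted p of 0.05, and 0 did at an unadjusted p of 0.05 (limma, two-sided, Benjamini-Hochberg adjustment over 16635 genes). Across all genes tested these shares were 0% and 1.7%, the second made up of 0.932% higher and 0.763% lower in KO. The unadjusted calls numbered 282, of which 55% were higher in KO, and that share was 42.1% for deposited values and 68.6% after centring arrays on their medians. This fit counts differences between array 3 and the others as spread within groups, which makes it conservative for genes with such differences. With a block term for the arrays numbered 3, 769 of 16635 genes had an unadjusted p under 0.05 (limma). That is no more than this threshold is expected to pass where no gene differs. Still 0 genes had an adjusted p under 0.05, and 0 members passed either threshold. The 5 members had log2 fold changes from -0.16 to 0.10 with a median of 0.012, and the median over all genes tested was 0.013. Of the 5 values 3 lay above 0, or 60%, and 54.8% of all genes did. The 95% confidence intervals of these 5 members all included 0, and each is given with its gene below.

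**Figure D1:**
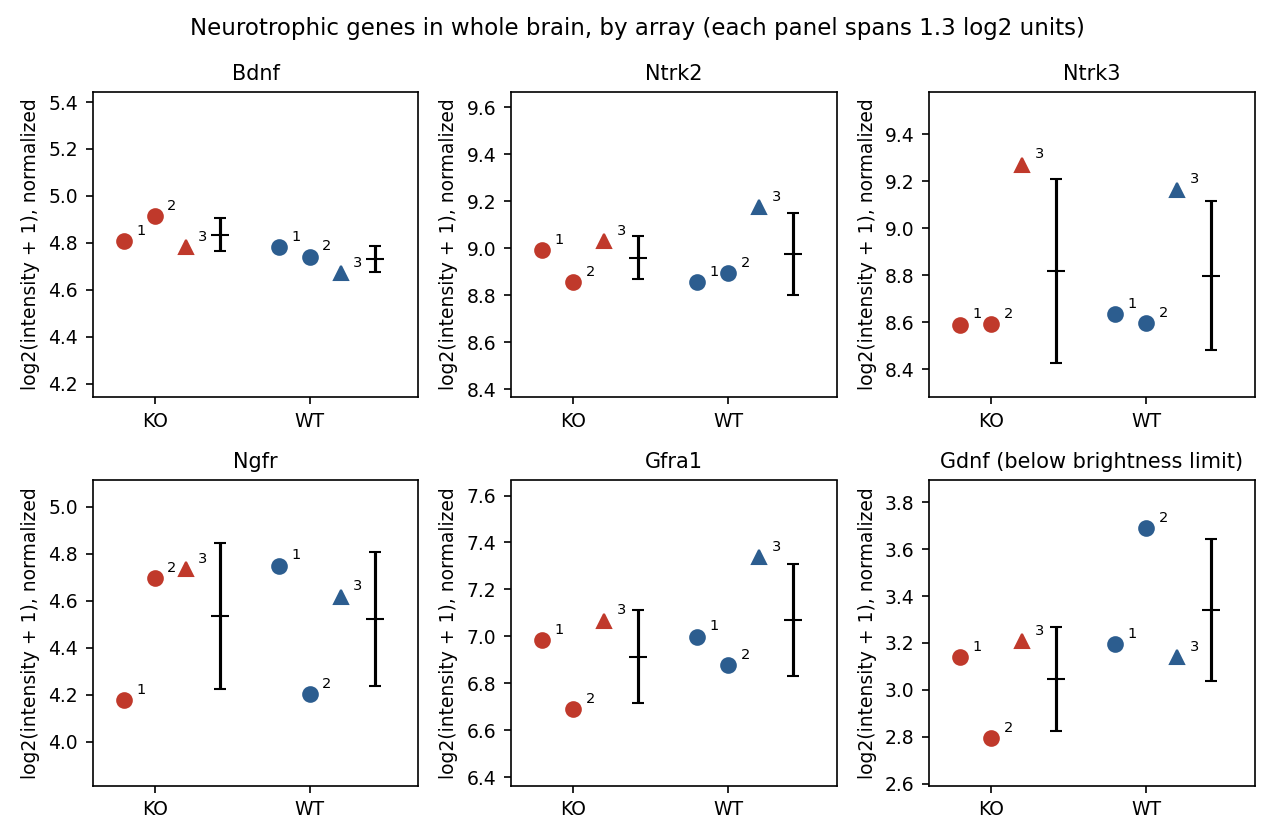
Quantile-normalised log2(intensity + 1) of 6 neurotrophic genes on each array, with KO left of WT; circles are arrays 1 and 2, triangles are array 3, numbers are the replicate numbers, and the bar beside each group is its mean ± SD (n = 3). Every panel spans the same log2 distance; Ntrk3 sits at 9.27 in KO 3 and 9.16 in WT 3, above 8.59 to 8.63 on the other arrays.

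Among the ligands, Bdnf encodes the brain-derived neurotrophic factor, which supports neuronal survival and synaptic plasticity and is transcribed from several start sites, some of them driven by neuronal activity. The table of RefSeq promoters (GRCm38.p6) matched 7 of the 8 genes by symbol, Ntrk3 being the exception, and lists 7 starts for Bdnf, all on chromosome 2. The 250 bases before each start were searched on both strands for the cyclic AMP response element TGACGTCA, its core CGTCA (which the full element contains), the GC box GGGCGG, the CCAAT box CCAAT and the TATA box TATAAA. Of 32851 such windows of all genes, 1.55% held the full element, 17.8% the core, 32.7% a GC box, 33.8% a CCAAT box and 12.4% a TATA box. The core was found before 1 of the 7 Bdnf starts, and that window is shown because Bdnf is the 1 member whose groups did not overlap after normalisation. The windows of Ntrk2 and Gfra1 are shown beside it because these receptors share a pattern over the arrays described further on. Capitals mark any of the motifs; the Ntrk2 window held 0 matches and the Gfra1 window 1 CCAAT box on the opposite strand. A match in these letters is a description and not a site.
Bdnf, chr2:109692186-109692435, plus strand: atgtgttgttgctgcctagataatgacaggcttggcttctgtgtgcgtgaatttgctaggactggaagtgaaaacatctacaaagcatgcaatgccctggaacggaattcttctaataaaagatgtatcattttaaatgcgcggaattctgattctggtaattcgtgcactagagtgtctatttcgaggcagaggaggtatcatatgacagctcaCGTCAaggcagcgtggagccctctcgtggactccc
Ntrk2, chr13:58806319-58806568, plus strand: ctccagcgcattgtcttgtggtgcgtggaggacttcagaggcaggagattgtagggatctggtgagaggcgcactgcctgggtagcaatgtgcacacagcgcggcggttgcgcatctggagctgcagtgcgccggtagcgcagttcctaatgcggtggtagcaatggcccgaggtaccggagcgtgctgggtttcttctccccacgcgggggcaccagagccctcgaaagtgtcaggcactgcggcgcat
Gfra1, chr19:58455399-58455648, minus strand: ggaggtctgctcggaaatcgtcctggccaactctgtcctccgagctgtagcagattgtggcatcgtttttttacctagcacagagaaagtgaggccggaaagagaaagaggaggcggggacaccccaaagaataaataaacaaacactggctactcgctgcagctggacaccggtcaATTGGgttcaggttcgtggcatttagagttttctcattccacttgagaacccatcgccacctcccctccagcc

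Bdnf had log2 levels of 4.81, 4.92 and 4.78 in KO brain, against 4.78, 4.74 and 4.67 in WT brain. All KO arrays lay above all WT arrays, though KO 3 exceeded WT 1 by 0.0013, and with values as deposited the groups overlapped. Across all genes tested the groups did not overlap in 5.7%, made up of 3.14% that had KO arrays wholly above WT arrays and 2.55% that had them below. The group means were 4.84 ± 0.070 in KO and 4.73 ± 0.056 in WT brain (SD, n = 3 each), a log2 fold change of 0.10 with a 95% confidence interval from -0.13 to 0.34 (limma, adjusted p = 1). The two-sided exact permutation p was 0.1, the smallest that 3 against 3 arrays allow. The difference in Bdnf was 0.026, 0.17 and 0.11 between arrays with the numbers 1, 2 and 3. Over the 15 alternatives the Bdnf value ran from 0.064 without KO 2 to 0.13, all above 0. Since its groups did not overlap, leaving out or weighting arrays could not turn the sign. Block terms and changes of filter or variance model leave the value as it is. On the scale of deposited intensities the probeset read 27.4 ± 1.45 in KO and 25.7 ± 1.16 in WT brain, which is a fold of 1.07 in the fit. Which Bdnf exons the probeset covers was not analysed here, so transcripts from different starts are not told apart.

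Gdnf encodes the glial cell line-derived neurotrophic factor, a survival factor for dopaminergic and motor neurons. Its log2 levels were 3.14, 2.80 and 3.21 in KO brain, against 3.20, 3.69 and 3.14 in WT brain. These values straddle the brightness limit of 3.28, with a single array, WT 2, above it, and the groups overlap. Fitted without the brightness limit, the log2 fold change was -0.29 with a 95% confidence interval from -0.71 to 0.13 (two-sided exact permutation p = 0.5). It was -0.12 without WT 2 and -0.17 without KO 2, so the arrays numbered 2 carried most of the difference, at -0.89 between them. The arrays numbered 1 and 3 differed by -0.055 and 0.071.

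Of the receptors, Ntrk2 encodes TrkB, the kinase that binds BDNF, which neurons make in full length and astrocytes largely as a form without the kinase. Ntrk2 had log2 levels of 8.99, 8.86 and 9.03 in KO brain, against 8.86, 8.89 and 9.18 in WT brain. The groups overlapped, with the lowest and nearly equal values in KO 2 and WT 1. The log2 fold change was -0.016 with a 95% confidence interval from -0.31 to 0.28 (limma, adjusted p = 1; exact permutation p = 0.8), or 0.807-fold to 1.21-fold. The sign of the Ntrk2 value turned with arrays centred on their median (0.032), without KO 2 (0.036) and without WT 3 (0.084). Whether its probeset reads the full-length or the shortened form was not analysed here.

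Ntrk3 encodes TrkC, the receptor of neurotrophin 3, known for its role in proprioceptive neurons. Its log2 levels were 8.59, 8.59 and 9.27 in KO brain, against 8.63, 8.60 and 9.16 in WT brain. The groups overlapped, and the spread within each came from array 3 standing above the other 2 arrays. The log2 fold change of Ntrk3 was 0.020 ± 0.23 (SE), with a 95% confidence interval from -0.52 to 0.56 (limma, adjusted p = 1; exact permutation p = 1). With the arrays numbered 3 as a block term the standard error was 0.079 and the value 0.020 (adjusted p = 0.998). The sign turned without KO 3 (-0.21), without WT 1 (-0.063) and without WT 2 (-0.081), and the value was 0.20 without WT 3.

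Ngfr encodes the p75 neurotrophin receptor, which in the adult brain marks cholinergic neurons of the basal forebrain. Its log2 levels were 4.17, 4.70 and 4.73 in KO brain, against 4.75, 4.20 and 4.62 in WT brain. KO 1 and WT 2 were low, and the other 4 arrays lay close together, so the groups overlapped. The log2 fold change of Ngfr was 0.012 with a 95% confidence interval from -0.46 to 0.48 (limma, adjusted p = 1; exact permutation p = 1). Its sign turned with values as deposited (-0.018), without KO 2 (-0.069), KO 3 (-0.087) or WT 2 (-0.15), and it was 0.19 without KO 1. All 5 markers of basal forebrain cholinergic neurons had a probeset, 4 of them passed the brightness limit, and their summed deposited intensity ran from 87.7 to 139 in KO and from 87.4 to 119 in WT brain, with 0 markers listed at 0. In bulk tissue, fewer cells of a type and less RNA per cell cannot be told apart.

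Gfra1 encodes the membrane-anchored co-receptor of GDNF. Its log2 levels were 6.98, 6.69 and 7.07 in KO brain, against 6.999, 6.88 and 7.34 in WT brain. The groups overlapped, with array 2 lowest and array 3 highest in each group. The log2 fold change of Gfra1 was -0.16 with a 95% confidence interval from -0.53 to 0.22 (limma, adjusted p = 1; exact permutation p = 0.5). The KO array lay below the WT array for each number, by -0.015, -0.19 and -0.27. The labels do not pair arrays by number, and KO 1 lay above WT 2. With the replicate number as a block the standard error was 0.093 against 0.16 without it (limma, adjusted p = 0.984). The value was -0.046 without KO 2 and -0.025 without WT 3. Gfra1 is read by 3 probesets, which disagree in sign: a dim one with a mean log2 level of 3.23 in KO and 3.03 in WT brain gave 0.20, and one shared with Gm10007 gave 0.031.

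**Figure D2:**
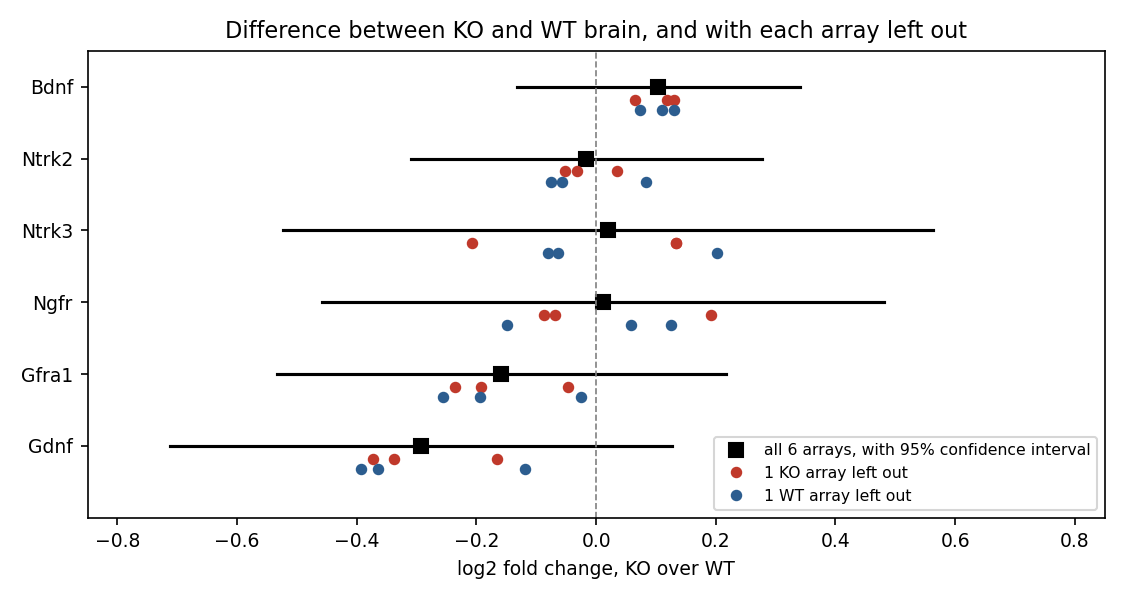
Log2 fold change of KO over WT for 6 neurotrophic genes, as squares with 95% confidence intervals from all 6 arrays, and as dots with 1 array left out (red for a KO array, blue for a WT array). All 6 intervals include 0. Bdnf lies between 0.064 and 0.13 with 1 array left out, where its sign could not turn because its groups do not overlap.

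A part of the members shared a pattern over the arrays that was present in both genotypes. In both groups array 3 was above the 4 arrays numbered 1 and 2 for Ntrk2, Ntrk3 and Gfra1, which is 3 of the 5 members above the brightness limit. Of all genes tested, 23.4% had both arrays numbered 3 above the other 4 and 20.6% had both below. Ntrk3 differed most, by 0.68 between KO 3 and the mean of KO 1 and KO 2, and by 0.55 between WT 3 and the mean of WT 1 and WT 2. For Gfra1 these differences were 0.23 in KO and 0.40 in WT brain, and for Ntrk2 0.11 in KO and 0.30 in WT brain. For Bdnf they were -0.078 in KO and -0.091 in WT brain, and the arrays of Bdnf and Ngfr numbered 3 overlapped with the others. The same 3 members stood above under both other scalings, deposited values and median-centred arrays. With deposited values 1 member, Bdnf, had both arrays numbered 3 below the other 4, though barely, at 26.28 in KO 3 against 26.29 in WT 1. These differences are described and not tested, since the labels give array 3 no meaning of its own.

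The other receptors and co-receptors of the family were higher in the arrays numbered 3 as well, in 11 of 14 tested (78.6%), and 0 were lower. Of all genes tested, 23.4% were higher and 20.6% lower. The other pathway lists, described further on, had smaller shares. Higher were 0 of 8 other ligands, 4 of 9 processing genes, 6 of 15 adaptors, 3 of 10 Trk targets and 1 of 5 gp130 targets. In each of these lists 2 genes were lower. The receptor count was 11 for deposited values and 12 for median-centred arrays, where 25.2% and 26.1% of all genes were higher. This comparison was planned for the members only. Ret, the kinase that GDNF engages through its co-receptors, had log2 levels of 5.21, 5.81 and 6.81 in KO brain, against 5.30, 5.78 and 6.71 in WT brain. The log2 fold change of Ret between the groups was 0.013 ± 0.46 (SE). Cntfr, the receptor subunit that binds CNTF, stood at 8.61 in KO 3 and 8.79 in WT 3, and between 8.13 and 8.36 on the other arrays. Gfra2, the co-receptor of neurturin, named here after its values were seen, differed by 0.82 in both groups. Markers of several cell types moved with the same arrays, and their part in these differences was not tested. The summed deposited intensity of 8 neuronal markers was 14740 in KO 3 and 15010 in WT 3, and 10410 to 10910 elsewhere. That of 5 basal forebrain cholinergic markers was 139 in KO 3 and 119 in WT 3, and 87.4 to 92.5 elsewhere. That of 4 oligodendrocyte precursor markers was 717 in KO 3 and 700.4 in WT 3, and 589 to 692 elsewhere. Of these 4, Olig1 alone read 332 in KO 3 and 347 in WT 3, and 213 to 276 elsewhere. The sum of 4 endothelial markers was 502 in KO 3 and 488 in WT 3, and 316 to 381 elsewhere. That of 5 microglial markers was 509 in KO 3 and 540 in WT 3, and 673 to 708 elsewhere, and that of 6 meningeal fibroblast markers was 448 in KO 3 and 408 in WT 3, and 669 to 791 elsewhere. The sum of 6 astrocyte markers was 3296 in KO 3 and 3097 in WT 3, and 3432 to 3919 elsewhere. That of 5 choroid plexus markers was 5330 in KO 3 and 5252 in WT 3, and 5510 to 6974 elsewhere. Ttr alone made up 5026 of it in KO 3 and 4943 in WT 3. The mean log2 level of these 5 markers did not set the arrays apart, at 6.98 in KO 3, 7.05 in WT 3 and 6.96 to 7.22 elsewhere. Sums of oligodendrocyte and Schwann cell markers overlapped between these arrays and the others. None of these markers was listed at 0. Not every marker followed its sum. In mean log2 level, the arrays numbered 3 differed from the others by -0.040 for Lhx8 and -0.22 for Gbx1 of the cholinergic list. Gbx1 lay below the brightness limit. The difference was -0.21 for the precursor marker Pdgfra, 0.027 for the astrocyte marker Slc1a3, and 0.039 and 0.034 for Kl and Clic6 of the choroid plexus. The other markers of the lists that set these arrays apart went with their sums in the sign of this difference, which was as small as -0.0034 for Aqp1. Some of them overlapped between these arrays and the others, among them Cspg4, Gpr17, Slc18a3, Slco1c1 and Col3a1.

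**Figure D3:**
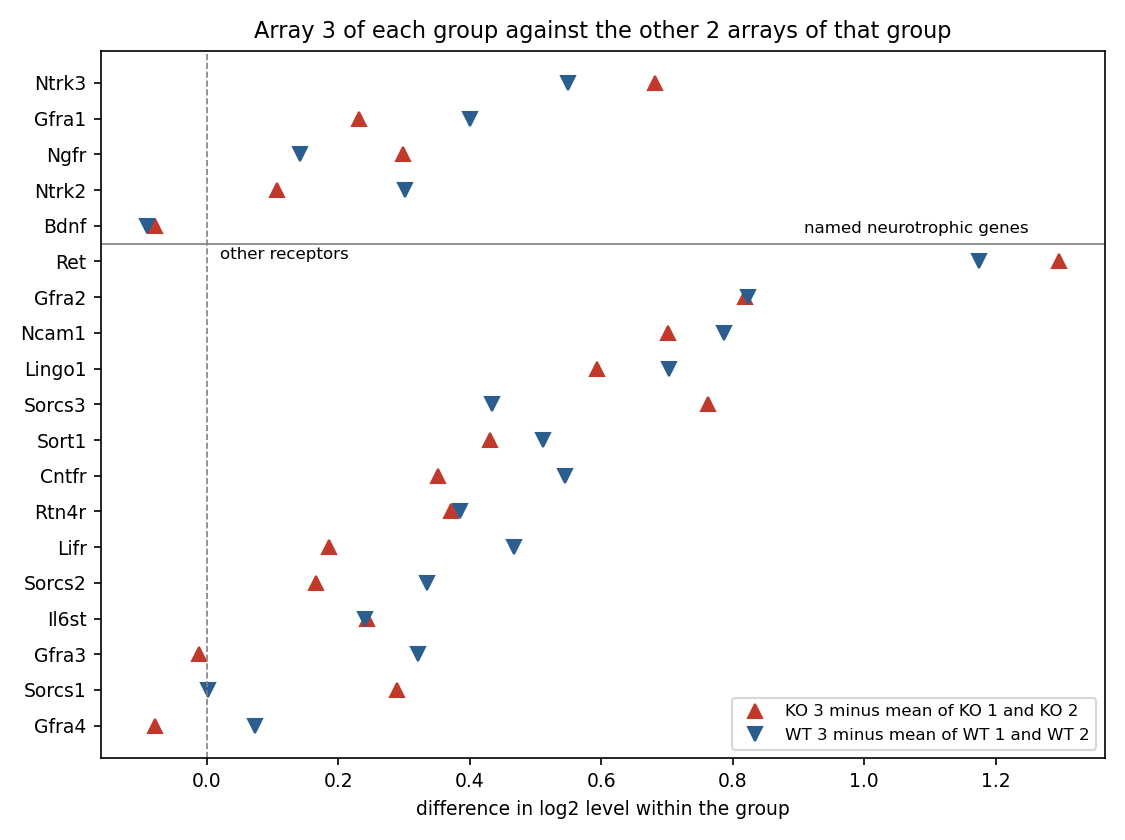
Difference in log2 level between array 3 and the mean of arrays 1 and 2 within each group, for 5 neurotrophic genes above the line and 14 other receptors of the family below it; upward triangles are KO and downward triangles WT. Most genes lie right of 0 in both groups, up to 1.296 in KO and 1.17 in WT brain for Ret, and Bdnf lies left of 0 in both.

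Ntrk3 and Gfra1 had the widest ranges over the 6 arrays among members above the brightness limit, 0.68 and 0.65 on the log2 scale. Of 15227 candidate genes, those whose deviations from their own mean were closest to Ntrk3 over the 6 arrays were Fam168a, Sh3gl2 and Sulf2, with root mean square differences of 0.023, 0.033 and 0.038, where the median candidate had 0.32. Sh3gl2 encodes endophilin A1, which acts in synaptic vesicle recycling, and Sulf2 a sulfatase that trims heparan sulfate. Closest to Gfra1 were Pnma3, Tmem86b and Smim43, with 0.047, 0.047 and 0.050, where the median candidate had 0.24. With 6 arrays and this many candidates, close matches are a description only.

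The other genes of the pathway were read in lists by role. Of 61 tested genes in 6 lists, 0 had an adjusted p under 0.05 and 1 had an unadjusted p under 0.05, or 1.64%, against 1.7% of all genes. Of 8 other ligands, 3 were above 0, and the median log2 fold change was -0.039. Manf, an endoplasmic reticulum protein with neurotrophic activity, had log2 levels of 5.25, 5.22 and 5.18 in KO brain, against 5.12, 5.002 and 4.88 in WT brain. The groups of Manf did not overlap, and its log2 fold change was 0.22 ± 0.11 (SE; limma, adjusted p = 1). Artn, which encodes artemin of the GDNF family, lay at 3.50, 3.25 and 3.44 in KO brain, against 3.52, 3.51 and 3.63 in WT brain, with all KO arrays below and a log2 fold change of -0.16. Ntf5, which encodes neurotrophin 4, a further ligand of TrkB, had a value of 0.12 with overlapping groups.

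Of 14 other receptors, 5 had values above 0, with a median of -0.0069 and a range from -0.14 to 0.050. Lingo1, a partner of p75 in inhibiting axon growth, was at -0.14 ± 0.28 (SE) on the log2 scale. Gfra4, the co-receptor of persephin, was at 0.038, and Sorcs3, of the sortilin family of sorting receptors, at -0.085. Cntfr was at -0.051.

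Of 9 genes that process and release neurotrophins, 6 had values above 0, with a median of 0.041. Pcsk1, a convertase that cleaves precursors in secretory granules, had log2 levels of 7.69, 7.54 and 7.56 in KO brain, against 7.35, 7.38 and 7.53 in WT brain. All KO arrays of Pcsk1 lay above all WT arrays, and the log2 fold change was 0.18 ± 0.11 (SE; limma, adjusted p = 1). Mmp9, a matrix protease that can cleave the BDNF precursor, was at 0.22, and Cpe, the carboxypeptidase that sorts BDNF to the regulated pathway, at 0.14, both with overlapping groups. Of 15 receptor adaptors and effectors, 11 had values above 0, with a median of 0.032. Grb2, which links activated Trk receptors to Ras, was at 0.15 with KO arrays above WT arrays. Traf6, an adaptor of p75, was at -0.097 with KO arrays below WT arrays, and Sh2b1, an adaptor of Trk receptors, was at 0.17 with overlapping groups.

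Genes that these receptors are known to induce split both ways. Of 10 targets of Trk signalling 5 had values above 0, with a median of 0.011. Nptx2, a secreted pentraxin of excitatory synapses, had log2 levels of 7.16, 6.62 and 7.06 in KO brain, against 6.62, 6.57 and 6.70 in WT brain. KO 1 and KO 3 were above all WT arrays and KO 2 was among them, and the log2 fold change of Nptx2 was 0.31 ± 0.16 (SE; limma, adjusted p = 1). The feedback inhibitors Spry2 and Spry4 were at 0.13 and 0.14. Of 5 targets of gp130 signalling 3 had values above 0, with a median of 0.10. Junb, a transcription factor that is also an immediate early gene, had log2 levels of 7.26, 7.07 and 6.87 in KO brain, against 7.40, 7.40 and 7.30 in WT brain. All KO arrays of Junb lay below all WT arrays, and its log2 fold change was -0.30 ± 0.13 (SE; limma, adjusted p = 1), the 1 gene with an unadjusted p under 0.05. Socs3, the feedback inhibitor of gp130, was at 0.12, and Gfap, the filament of astrocytes, at 0.15.

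**Figure D4:**
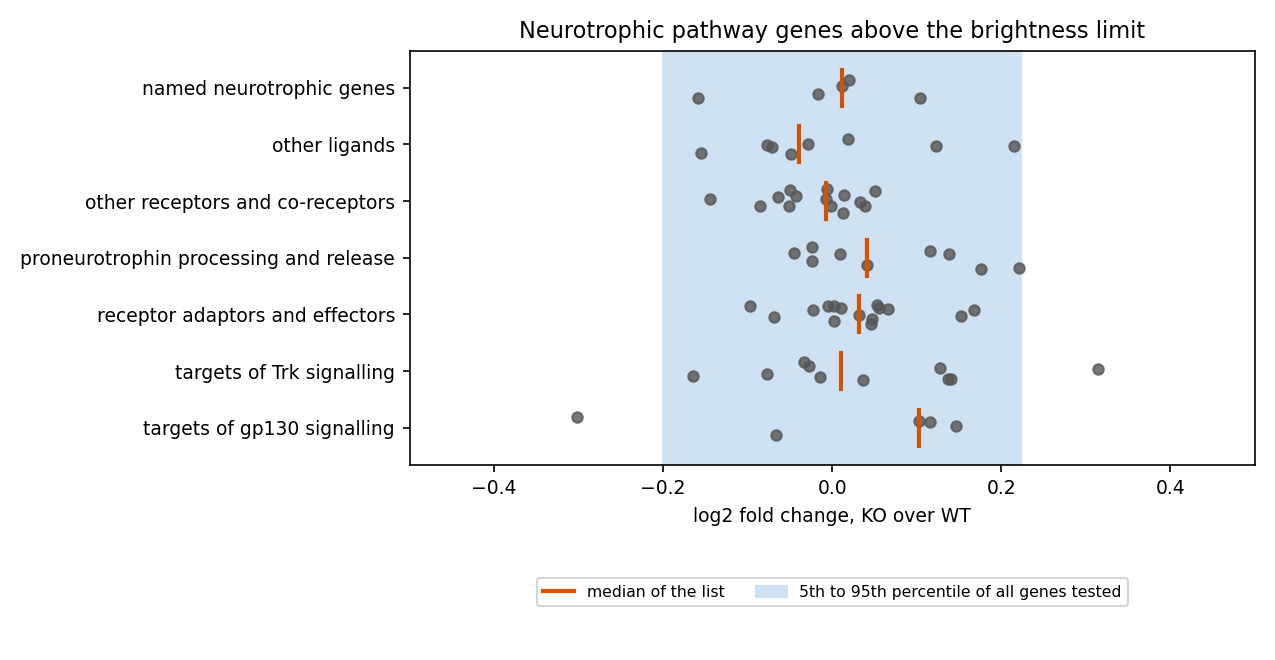
Log2 fold change of KO over WT for each gene above the brightness limit, by list, with the list's median as a bar; points are spread vertically for visibility. The shaded band is the 5th to 95th percentile of all genes tested, -0.20 to 0.22, and the points outside it are Junb at -0.30 and Nptx2 at 0.31.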

How the data were processed

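Per the labels' protocols, TRIzol RNA was labelled from 150 ng with the Affymetrix WT Plus kit. The deposited values are intensities on a linear scale and cover 41340 probesets. The submitters' processing notes name MAS5; version, background correction and scaling were not given in the sources used here. Array medians of log2(intensity + 1) differed by 0.119, above the limit of 0.1, so arrays were quantile-normalised. The annotation table listed 25335 probesets, 23521 with 1 symbol and 1814 with several; 16005 are unnamed here. The brightest probeset on average stood for each gene, and the dimmest 25% of genes were removed. KO and WT were compared with limma 3.58.1 (lmFit, eBayes) in R 4.3.3, adjusted over all genes tested; plots used matplotlib 3.10.9. The fit was tested in 5 runs of simulated data with 200 changed genes. Noise was drawn independently for each array, without the pattern that the arrays numbered 3 share. At an adjusted p under 0.05 the fit recovered 15.6% of 1.5-fold, 63.2% of 2-fold and 93.6% of 4-fold changes. It made 4.6 false calls a run. Most 1.5-fold changes were thus missed.

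The text names all 8 members, Elavl1, Xist, the leading neuronal marker (Rbfox3, listed first) and up to 3 genes a pathway list with the smallest p. It also names the partners Ret and Cntfr, and the 3 most similar genes of 2 members. Gfra2, Ttr, Olig1 and the cell type markers that departed from their sums or overlapped were added after their values were seen. Members and lists were chosen with earlier results of these data known. Same-numbered arrays deviated from their group means together, at correlations across genes of 0.314, 0.367 and 0.752 for the numbers 1, 2 and 3, which passes the limit of 0.1 used here for pairing. This check comes from the data and not from a label, and it sets apart number 3 alone, since KO 2 correlated with WT 1 at 0.401 and KO 1 with WT 2 at 0.373. The reported fits are without pairs; the replicate number as a block was an alternative. The median half-width of a 95% confidence interval was 0.328 on the log2 scale.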

Additional observations from a re-analysis of the deposited data

How the results depend on the processing

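In every alternative run, 0 genes and 0 members passed an adjusted p of 0.05 (limma), and 0 members above the brightness limit had an unadjusted p under 0.05. Bdnf stayed above 0 in 15 of 15 alternatives and Gdnf below 0 in 14 of 14, from -0.47 to -0.11. Many of these runs could not turn a sign: block terms and changes of filter or variance model leave the value as it is. For Bdnf, whose groups did not overlap, leaving out or weighting arrays could not turn it either. Bdnf, Ngfr and Gdnf gave no value in the upper 50% of genes, since they were too dim for that limit. Other signs turned, each within its standard error except Gfra1 on its dim probeset and Ntrk3 without KO 3, and the cause was not tested. Ngfr was -0.018 with values as deposited. With arrays centred on their median, Ntrk2 was 0.032 and Elavl1 0.014. Array weights gave 0.021 for Ntrk2, -0.028 for Ntrk3, -0.030 for Ngfr and 0.025 for Elavl1. Without both arrays numbered 3 the values were 0.048 for Ntrk2, -0.024 for Ntrk3, -0.040 for Ngfr and 0.058 for Elavl1. Gfra1 was 0.020 as the mean of its probesets and 0.20 on the dim one. Leaving out 1 array gave -0.076 to 0.084 for Ntrk2, -0.21 to 0.20 for Ntrk3, -0.15 to 0.19 for Ngfr and -0.18 to 0.080 for Elavl1.

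Genes with an unadjusted p under 0.05 numbered 465 without the brightness filter and 88 in the upper 50% of genes, where other numbers of genes were tested. In the fits named next, 16635 genes were tested. They numbered 755 with array weights, 769 with the arrays numbered 3 as a block term, 854 without those arrays, and 163 (without KO 2) to 574 (without WT 3) with 1 array left out. With the replicate number as a block there were 806, and the block changed no call of a member. Depth cannot be read from these intensities.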
